A study of Mus musculus with 12 samples.

Results

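The genes described here were the 3 ligand genes of the Tnf locus on mouse chromosome 17 (Tnf, Lta and Ltb), 5 genes of the TNF receptor superfamily (Tnfrsf1a, Tnfrsf1b, Ltbr, Tnfrsf11a and Fas) and 2 further ligand genes, Tnfsf10 and Tnfsf13b. They were taken by symbol, whatever their measured values, from the 55335 genes quantified in each of 12 RNA-seq libraries. Each symbol matched 1 gene, and all 10 were among the 14008 genes that passed the filter on low counts. The libraries came from bone marrow-derived dendritic cells (BMDCs) of C57BL/6 mice, in 4 groups of 3. Cells of CreER mice formed the wild-type groups WT (no treatment) and WTL (LPS at 100 ng/ml for 3 h), and cells of CreER;CTCF fl/fl mice formed KO (no treatment) and KOL (the same LPS treatment). Mice of both genotypes were adult males and females, and the CreER controls were littermates matched for age and sex. CTCF is a DNA-binding protein that halts cohesin-driven loop extrusion and so sets many chromatin loops and domain borders, and LPS is the bacterial ligand of Toll-like receptor 4. All cultures were grown in GM-CSF for 6 days, and CD11c+ cells were selected. The CreER recombinase, carried by every group, is expressed from the Rosa26 locus and so was not limited to dendritic cells. 4-OH-tamoxifen was added on the first day for the deletion. The study's text can be read as saying that the WT cultures did not receive it, and in that case its effect and that of the deleted allele cannot be told apart. They also do not say how many animals each library came from, so that p-values measure the spread between these cultures.

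TNF is made as a membrane-bound trimer that the protease ADAM17 sheds, and it signals through TNFR1 (Tnfrsf1a), found on most cells, and TNFR2 (Tnfrsf1b), found mainly on immune cells. Lymphotoxin alpha (Lta) binds the same receptors as a homotrimer, and together with lymphotoxin beta (Ltb) it forms a membrane-bound ligand of the lymphotoxin beta receptor (Ltbr). In dendritic cells and macrophages TNF is among the earliest cytokines made after Toll-like receptor signalling, through NF-kB and mRNA stabilisation.

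The libraries held 12769773 to 16586334 expected counts, the estimated read counts per gene that RSEM gives. Ctcf, the targeted gene, had 1051, 987 and 975 normalized counts in WT against 570, 562 and 516 in KO, and 886, 817 and 745 in WTL against 564, 530 and 526 in KOL. Normalized counts are expected counts scaled to the mean TMM-adjusted library size, a scaling that sets the bulk of genes equal between libraries. The KO libraries thus carried 1.83-fold less Ctcf than WT (edgeR quasi-likelihood test, log2 fold change -0.87, SE 0.08, adjusted p = 3.9e-07), and the counts include exons outside any deleted part. Ribosomal RNA genes took 5.17% of WTL replicate 2 and 0.383% to 1.19% of the other 11 libraries. The sources differ on whether ribosomal RNA was depleted or poly(A) RNA selected, so what this share measures is uncertain. WTL replicate 2 stood furthest from the other libraries of its group (chi-square per degree of freedom of the counts 86.04 and 80.35, against 31.1 between the other WTL libraries), and KOL replicate 2 did so in KOL (29.8 and 31.4 against 8.78). The LPS-treated libraries had TMM factors of 0.817 to 0.885 and the untreated ones of 1.12 to 1.22, and on TPM (transcript counts per length, scaled to a fixed total), which carry no such scaling, the log2 fold change of the median gene shifted by -0.49 for WTL against WT and by -0.43 for KOL against KO. Dendritic cell genes were abundant (7324 to 7821 TPM summed over 8 genes in WT, 5914 to 6188 in KO), with Itgax higher and Flt3, Cd209a, H2-Ab1 and Ccr7 lower in KO. A macrophage list of 8 genes summed to 1061 to 1137 TPM in WT, 1117 to 1167 in KO, 615 to 738 in WTL and 566 to 641 in KOL. Of that list, C1qa and Csf1r were higher in KO than in WT, and Fcgr1, Mertk and Adgre1 were lower. All 6 tested genes of a neutrophil and precursor list of 8 were lower in KO than in WT, against 17.2% of all genes tested. The list summed to 375 to 399 TPM in WT, 193 to 225 in KO, 348 to 443 in WTL and 288 to 332 in KOL. B cell genes summed to at most 1.71 TPM and T and NK cell genes to at most 5.32 in any library, and Cd3d and Cd3g, which define T cells, had at most 3 counts.

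Of the 10 genes, LPS raised 4 in WT cells and 5 in KO cells and lowered none. Each comparison used the quasi-likelihood test of edgeR, with Benjamini-Hochberg adjusted p-values computed across the 14008 genes tested. A gene was called at an adjusted p under 0.05 and past a fold cutoff, which was 2 for LPS, 1.3 between the untreated groups and 1.5 between the LPS-treated groups. Tnf, Lta, Tnfrsf1b and Tnfsf10 rose in WTL, where 12.6% of all genes tested were called higher and 9.99% lower. Tnf, Lta, Tnfrsf11a, Fas and Tnfsf10 rose in KOL over KO, where the shares of all genes were 15.1% higher and 13.0% lower. The median log2 fold change of the 10 genes was 0.78 in WT and 0.97 in KO, against -0.018 and -0.024 over all genes tested. Without the fold cutoff, 7 of the 10 were higher in WT and 8 in KO, and none lower. By that rule 30.0% of all genes were higher and 30.2% lower in WT, and 33.6% and 33.9% in KO.

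Without LPS, KO cells had lower Tnf, Tnfrsf1b and Tnfrsf11a and higher Ltbr than WT cells, with 17.2% of all genes tested called lower and 17.3% higher. With LPS, Tnf and Tnfrsf1b were lower in KOL than in WTL and none of the 10 was called higher, with 12.5% of all genes called in each direction. The median log2 fold change of the 10 genes was -0.41 without LPS and 0.014 with LPS, against -0.014 and -0.035 over all genes. The LPS response, as the log2 fold change in KO minus that in WT, differed for 4 of the 10 genes: it was larger in KO for Tnf, Tnfrsf11a and Fas and smaller for Tnfrsf1a, where 8.7% of all genes were called in the first direction and 8.75% in the second. Each group enters more than 1 of these comparisons, so their calls are not independent of each other. Without KOL replicate 2, 4 of the 10 were called between KOL and WTL, with Ltbr added as higher and Tnfsf10 as lower. Calls over all genes rose too, to 1842 higher and 2050 lower from 1751 and 1752.

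**Figure D1:**
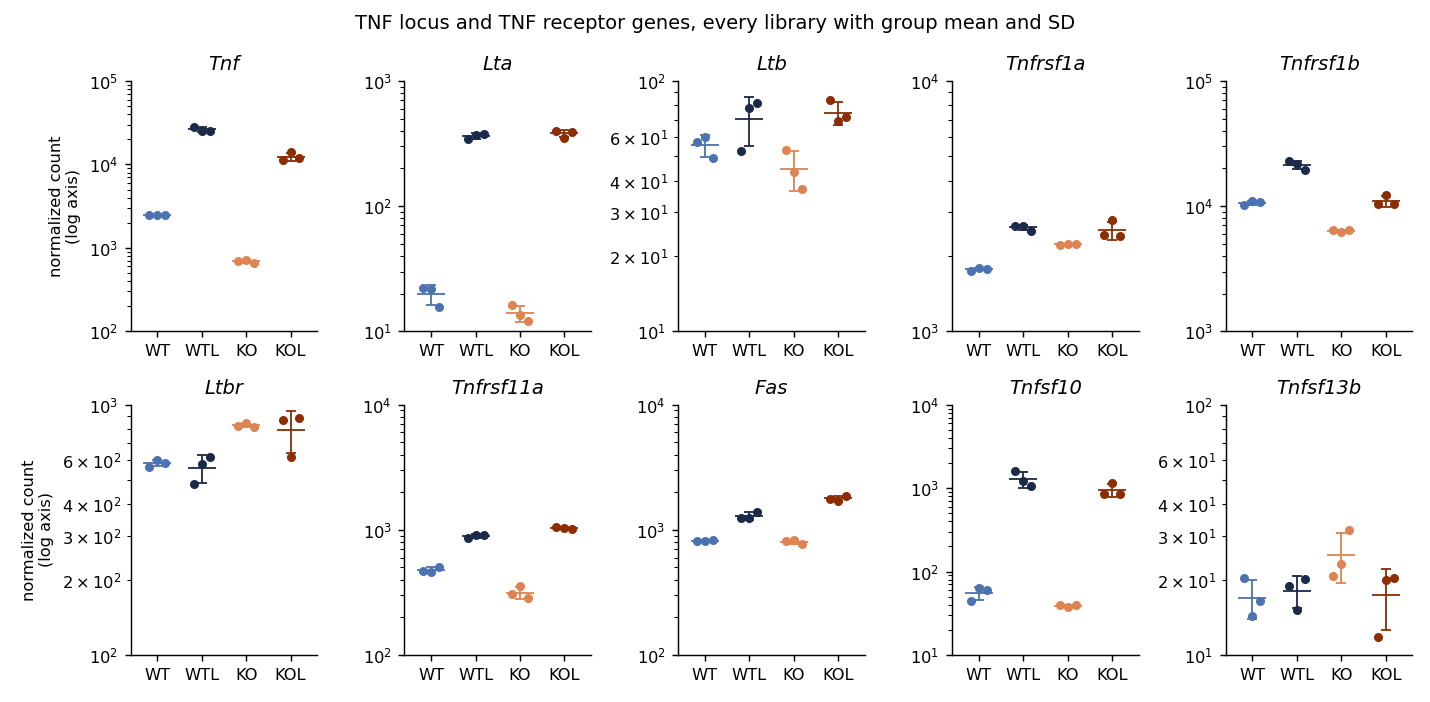
Normalized counts of the 10 genes in each library on log axes that differ between panels, with the 3 libraries of WT, WTL, KO and KOL as points and the group mean and SD as bars. Tnf stood near 2460 in WT and 694 in KO without LPS, and at 25280 to 28480 in WTL and 11240 to 13960 in KOL with it, whereas Lta reached like levels in WTL and KOL.

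**Figure D2:**
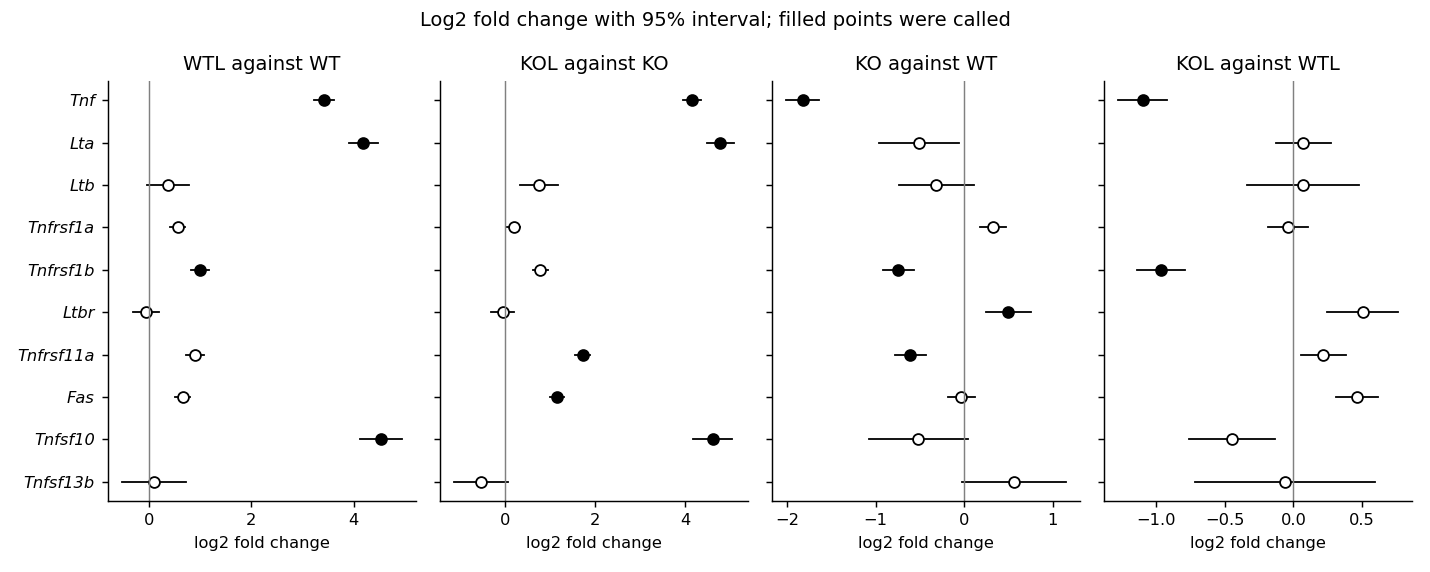
Log2 fold changes with 95% intervals from the edgeR fit for LPS in WT, LPS in KO, KO against WT and KOL against WTL, on horizontal axes that differ between panels, filled where called. The points of Tnf and Tnfrsf1b lie left of 0 in both right-hand panels, while the intervals of Ltb and Tnfsf13b cross 0 in 3 or more of the 4 panels.

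The 3 genes of the locus lie within 10913 bases of chromosome 17 in GRCm38 coordinates (mm10), between Lst1 and Nfkbil1. Ltb spans chr17:35194439-35196320 on the plus strand, Tnf chr17:35199381-35202007 on the minus strand and Lta chr17:35203165-35205351 on the minus strand. Tnf and Ltb thus converge with 3060 bases between their 3' ends, and 1157 bases separate the 3' end of Lta from the start of Tnf. Ltb and Lta each hold a miRNA gene on their own strand (Mir6973a and Mir6974), whose reads the counting could assign to either. The 250 bases before each RefSeq start site (GRCm38.p6, gene strand, 5' to 3') are shown because the genes responded differently although they are neighbours. Capitals mark matches to a TATA box (TATAAA, gene strand), a STAT-type GAS sequence (TTCNNNGAA, both strands) and the NF-kB consensus (both strands). The windows are chr17:35202008-35202257 for Tnf, chr17:35205352-35205601 for Lta (both minus strand) and chr17:35194257-35194506 for Ltb (plus strand).
Tnf: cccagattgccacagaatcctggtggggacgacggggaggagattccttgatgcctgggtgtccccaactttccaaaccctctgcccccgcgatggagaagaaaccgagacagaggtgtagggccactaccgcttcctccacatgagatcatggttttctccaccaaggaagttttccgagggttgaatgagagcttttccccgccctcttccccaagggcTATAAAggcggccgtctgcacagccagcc
Lta: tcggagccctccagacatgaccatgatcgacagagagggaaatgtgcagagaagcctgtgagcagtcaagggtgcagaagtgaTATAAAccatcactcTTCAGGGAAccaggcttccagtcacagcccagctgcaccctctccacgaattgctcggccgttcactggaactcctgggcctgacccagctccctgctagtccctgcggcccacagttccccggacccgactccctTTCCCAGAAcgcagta
Ltb: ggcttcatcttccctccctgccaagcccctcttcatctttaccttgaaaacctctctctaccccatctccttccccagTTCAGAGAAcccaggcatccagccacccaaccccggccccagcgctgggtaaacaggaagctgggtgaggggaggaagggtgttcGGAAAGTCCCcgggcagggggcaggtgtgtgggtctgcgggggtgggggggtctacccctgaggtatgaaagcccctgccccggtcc

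In the Tnf window the TATAAA match began 29 bases before the start site. The Lta window held TTCNNNGAA at 152 and 16 bases and TATAAA at 167 bases before its start, and the Ltb window held TTCNNNGAA at 172 and the NF-kB consensus at 87 bases. Over the same length, 7.59% of 32851 RefSeq mouse promoters held TATAAA, 7.02% TTCNNNGAA and 7.25% the NF-kB consensus. GAGGAA, the core that PU.1 binds (both strands), lay 117 bases before the Tnf start and 101 before that of Ltb, and in 23.3% of all promoters. A match describes letters only, and no match in the Tnf window says only that the consensus letters are not in these 250 bases.

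Tnf had 2457, 2455 and 2463 normalized counts in the WT libraries and 28480, 25430 and 25280 in WTL. In KO it had 697, 721 and 663, and in KOL 11240, 13960 and 11800. The 4 groups did not overlap, and every KO library lay below every WT library, as every KOL library lay below every WTL library. LPS raised Tnf 10.7-fold in WT (log2 fold change 3.42, SE 0.09, edgeR adjusted p = 5.7e-13) and 17.8-fold in KO (4.15, SE 0.09, adjusted p = 9.4e-14). Tnf was 3.54-fold lower in KO than in WT (log2 fold change -1.83, SE 0.09, edgeR adjusted p = 7.6e-10) and 2.14-fold lower in KOL than in WTL (-1.10, SE 0.08, adjusted p = 9.7e-08). KO cells therefore held 28.2% of the WT level without LPS and KOL cells 46.7% of the WTL level with it.

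The log2 LPS response of Tnf was 0.73 larger in KO (95% interval 0.47 to 0.98, edgeR adjusted p = 0.00083). On the linear scale the order was the opposite. LPS added 23940 normalized counts in WT (SE 1042) and 11640 in KO (SE 828), so that the KO increment was 48.6% of that in WT. In TPM, a level per transcript length, Tnf stood at 167 ± 3.81 in WT (SD, n = 3), 1245 ± 126 in WTL, 44.0 ± 2.11 in KO and 570 ± 59.4 in KOL. By its mean TPM it ranked 713 of all 55335 genes in WT and 134 in WTL, against 2584 in KO and 265 in KOL. The neutrophil list above was lower in KO too. Between KOL and WTL, 5 of its 6 tested genes were lower, against 12.5% of all genes. S100a8 was not, at 933.5 normalized counts in WTL and 935.4 in KOL. The part of this list in the values of Tnf was not tested. In bulk libraries, fewer cells of a type and less RNA per cell cannot be told apart.

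Lta, whose product is secreted lymphotoxin alpha, had 22.1, 21.8 and 15.6 normalized counts in WT, 343, 369 and 378 in WTL, 16.2, 13.4 and 12.04 in KO and 402, 352 and 391 in KOL. The WT and KO libraries overlapped, as did the WTL and KOL libraries, and both LPS groups lay far above both untreated groups. LPS raised Lta 18.3-fold in WT (log2 fold change 4.19, SE 0.13, edgeR adjusted p = 2.9e-12) and 27.2-fold in KO (4.77, SE 0.14, adjusted p = 1.2e-12). Untreated KO and WT cells had 13 to 26 expected counts per library, and their log2 difference was -0.50 (95% interval -0.97 to -0.052, edgeR adjusted p = 0.12). On log2(TPM + 0.1) it was called lower (-0.56, limma adjusted p = 0.017). KOL and WTL differed by 0.07 (95% interval -0.13 to 0.27, adjusted p = 0.57), an interval that does not reach the -1.10 of Tnf. The ratio of Tnf to Lta in TPM was accordingly 104 ± 22.2 in WT, 59.7 ± 7.18 in WTL, 41.5 ± 5.31 in KO and 26.7 ± 5.04 in KOL (SD, n = 3). The 4 groups did not overlap in this ratio, with 90.98 to 130 in WT, 54.8 to 67.9 in WTL, 35.4 to 45.1 in KO and 22.9 to 32.4 in KOL.

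Ltb, the membrane anchor of the lymphotoxin heterotrimer, had 57.0, 59.5 and 49.3 normalized counts in WT, 52.6, 78.0 and 81.9 in WTL, 52.9, 43.2 and 37.1 in KO and 83.9, 69.0 and 71.5 in KOL. It was low in every library and the groups overlapped, except that every KOL library lay above every KO and every WT library. LPS gave a log2 difference of 0.75 in KO (SE 0.19, edgeR adjusted p = 0.0035), under the 2-fold cutoff, and of 0.37 in WT (95% interval -0.038 to 0.78, adjusted p = 0.11). On TPM the differences were 0.19 in KO (limma adjusted p = 0.34) and -0.24 in WT, so the direction in WT depended on the scaling. KO against WT gave -0.31 (95% interval -0.74 to 0.11) and KOL against WTL 0.07 (95% interval -0.34 to 0.47), with edgeR adjusted p of 0.22 and 0.80. At 39 to 78 expected counts per library, smaller differences of Ltb were not detectable.

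Of 6 neighbours within 40 kb, Nfkbil1 alone rose with LPS in WT, where 12.6% of all genes were called higher, from 123 to 442 normalized counts (log2 fold change 1.84, SE 0.08, edgeR adjusted p = 1.1e-10). Prrc2a was higher in KO than in WT (2716 to 4013 normalized counts, log2 fold change 0.56, edgeR adjusted p = 5.4e-05), a call that was not made on TPM (0.18, adjusted p = 0.52). Lst1, a leukocyte-specific transcript whose start site lies on the far side of Ltb, was lower (230 to 157, -0.55, adjusted p = 0.00021). Its LPS response, like that of Tnf, was larger in KO (0.47, SE 0.13, edgeR adjusted p = 0.022), a call that was lost without WTL replicate 2, KO replicate 2 or 3, or KOL replicate 3 (adjusted p of 0.051 to 0.064). Ddx39b, an RNA helicase of mRNA export, was higher in KOL than in WTL (2848 to 4321 normalized counts, 0.60, edgeR adjusted p = 5.1e-06), near the cutoff and under it on TPM (0.52) and without WTL replicate 1 or KOL replicate 1 (0.55 and 0.56). Atp6v1g2, named after its values were seen, was higher too, at 22.1 and 37.5 counts.

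**Figure D3:**
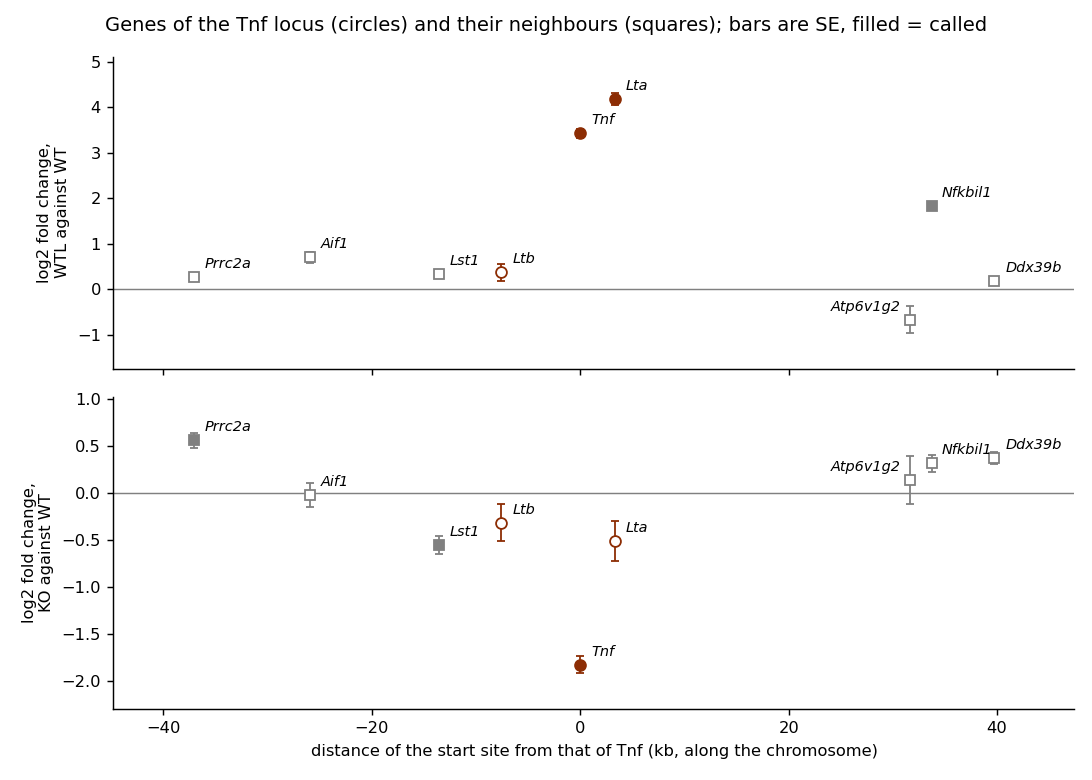
Log2 fold changes of the Tnf locus genes (circles) and 6 neighbours (squares) against the distance of their start sites from that of Tnf in kb, for WTL against WT (top) and KO against WT (bottom), with SE bars and filled symbols where called. Tnf and Lta stand above 3 in the top panel, and in the bottom panel Tnf alone lies below -1, with Lta at -0.50 and Ltb at -0.31.

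Tnfsf10 encodes TRAIL, a ligand of death receptors and an interferon-induced gene. It had 44.1, 62.9 and 59.6 normalized counts in WT, 1613, 1212 and 1064 in WTL, 39.5, 37.4 and 39.8 in KO and 839.8, 1154 and 859.6 in KOL. The LPS groups lay far above the untreated ones, the WT and KO libraries did not overlap, and KOL replicate 2 reached into the range of WTL. LPS raised it 23.2-fold in WT (log2 fold change 4.53, SE 0.19, edgeR adjusted p = 5.6e-11) and 24.3-fold in KO (4.61, SE 0.20, adjusted p = 8e-11). The log2 responses differed by 0.07 (95% interval -0.57 to 0.72, adjusted p = 0.90). KO against WT gave -0.52 (95% interval -1.08 to 0.041, edgeR adjusted p = 0.12), a difference that was called in a fit on those 6 libraries alone (adjusted p = 0.016). KOL against WTL gave -0.45 (adjusted p = 0.023), under the 1.5-fold cutoff, and -0.61 without KOL replicate 2 (adjusted p = 0.0017).

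Tnfsf13b encodes BAFF, a survival factor of B cells. It had 20.2, 14.3 and 16.4 normalized counts in WT, 18.9, 15.2 and 20.2 in WTL, 20.6, 23.0 and 31.5 in KO and 11.8, 19.9 and 20.3 in KOL. The KO libraries lay above those of the other 3 groups, by less than 1 count at the nearest libraries, the other groups overlapped, and no comparison was called. The widest log2 difference between 2 groups was that of KO against WT, 0.56 (95% interval -0.021 to 1.16, edgeR adjusted p = 0.11). The LPS responses differed by -0.62 (95% interval -1.51 to 0.25, adjusted p = 0.33). At 11 to 34 expected counts per library the intervals spanned more than 1 log2 unit in each comparison.

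Tnfrsf1b, the gene of TNFR2, had 10220, 11000 and 10770 normalized counts in WT and 22770, 21830 and 19430 in WTL. In KO it had 6455, 6208 and 6420, and in KOL 10310, 12190 and 10360. It was lower in each KO library than in any WT library and lower in each KOL library than in any WTL library, and the KOL libraries overlapped those of untreated WT cells. The KO against WT log2 fold change was -0.75 (SE 0.08, edgeR adjusted p = 3.8e-06) and that of KOL against WTL -0.96 (SE 0.08, adjusted p = 3e-07). LPS raised it 2.002-fold in WT (log2 fold change 1.00, SE 0.08, edgeR adjusted p = 8.4e-08), at the cutoff itself. That call was lost without WT replicate 1, 2 or 3 (0.89, 0.95 and 0.93) and without WTL replicate 1 or 2 (0.95 and 0.99), although every adjusted p stayed under 0.05. It was also lost in the 6 libraries alone (0.99), without the filter (0.97), under a minimum of 10 counts per library (0.99) and on TPM, where the difference was 0.47 (limma adjusted p = 0.0003). In KO the LPS difference was 0.78 (SE 0.08, edgeR adjusted p = 9.3e-07), under the cutoff, and on TPM 0.26. The responses differed by -0.22 (95% interval -0.46 to 0.027, adjusted p = 0.22), and by -0.30 without KOL replicate 2 (adjusted p = 0.034).

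Tnfrsf1a, the gene of TNFR1 with its death domain, had 1747, 1782 and 1774 normalized counts in WT and 2643, 2633 and 2518 in WTL. In KO it had 2207, 2233 and 2232, and in KOL 2424, 2772 and 2393. WT was the lowest group and KO came next, while WTL and KOL overlapped. No pairwise comparison passed its fold cutoff. The log2 difference of LPS was 0.56 in WT (SE 0.07, edgeR adjusted p = 6.6e-06) and 0.19 in KO (SE 0.07, adjusted p = 0.026), and on TPM these were 0.036 (limma adjusted p = 0.66) and -0.24 (adjusted p = 0.0092). KO against WT gave 0.33 (SE 0.07, edgeR adjusted p = 0.0011) and KOL against WTL -0.04 (95% interval -0.18 to 0.11, adjusted p = 0.68). The response was 0.37 log2 units smaller in KO by the interaction term (-0.37, SE 0.10, edgeR adjusted p = 0.017), and without WT replicate 1, 2 or 3 its adjusted p was 0.093, 0.085 or 0.089. It was not called on TPM either (-0.28, limma adjusted p = 0.096).

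The 2 TNF receptor genes differed in opposite directions without LPS, at 1.68-fold lower for Tnfrsf1b and 1.26-fold higher for Tnfrsf1a in KO. The TPM ratio of Tnfrsf1b to Tnfrsf1a was 3.09, 3.29 and 3.25 in WT, 4.58, 4.37 and 4.10 in WTL, 1.59, 1.60 and 1.61 in KO and 2.22, 2.28 and 2.30 in KOL. No group overlapped another, and the highest KOL library lay below the lowest WT library. A ratio within a library is free of the scaling between libraries. No test was run on it.

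**Figure D4:**
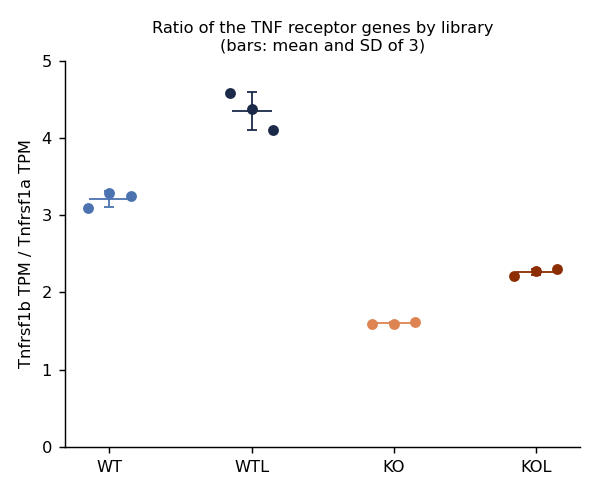
Ratio of Tnfrsf1b to Tnfrsf1a in TPM in each library, with the mean and SD of the 3 libraries of a group as bars. The ratio ran in the order WTL (mean 4.35), WT (3.21), KOL (2.27) and KO (1.60) with no overlap between groups.

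Ltbr, the receptor of membrane lymphotoxin, had 566, 602 and 586 normalized counts in WT, 480.1, 579 and 616 in WTL, 825, 842 and 812 in KO and 869.9, 620.1 and 888 in KOL. It was higher in every KO library than in any WT library, and KOL replicate 2 lay just above the highest WTL library while the other KOL libraries lay well above it. The KO against WT log2 fold change was 0.50 (SE 0.12, edgeR adjusted p = 0.0033), and on TPM 0.35 (limma adjusted p = 0.064). KOL against WTL gave 0.50 (SE 0.12, edgeR adjusted p = 0.0036), under the 1.5-fold cutoff, and 0.65 without KOL replicate 2 (adjusted p = 2.5e-05), which passed it. LPS gave -0.06 in WT (95% interval -0.32 to 0.20) and -0.06 in KO (95% interval -0.31 to 0.19), with edgeR adjusted p of 0.67 in both. On TPM these differences were -0.64 (limma adjusted p = 0.0014) and -0.45 (adjusted p = 0.011), under the 2-fold cutoff.

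Ltbr and Tnfrsf1a lie near each other on chromosome 6, at chr6:125306571-125313885 (minus strand) and chr6:125349362-125362484 (plus strand). The 35476 bases between them hold Scnn1a. Of 7 tested genes of 8 around them, 3 were higher and 2 lower in KO than in WT, against 17.3% and 17.2% of all genes. Most of the 8 are not close. By start site along the chromosome, Scnn1a lay at -28.7 kb and Plekhg6 at 31.4 kb from Tnfrsf1a. The others lay at -112 kb or further, with Vamp1 at -134, Tapbpl at -117.5 and Ncapd2 at -158 kb. Vamp1, a vesicle fusion protein, was higher (245 to 349 normalized counts, log2 fold change 0.51, edgeR adjusted p = 0.0044; not called on TPM, adjusted p = 0.056). Tapbpl, an editor of peptides on MHC class I, was lower (499 to 344, -0.54, adjusted p = 0.00016), and so was the condensin subunit gene Ncapd2 (1352 to 938, -0.53, adjusted p = 4e-05). The 2 other higher genes, Scnn1a and Plekhg6, flank Tnfrsf1a and were named after their values were seen, with means of 7.58 and 22.2 and of 11.1 and 33.8 normalized counts in WT and KO.

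Tnfrsf11a encodes RANK, the receptor of RANKL, which supports survival of dendritic cells and osteoclast formation. It had 467, 464 and 508 normalized counts in WT, 860.4, 915 and 903 in WTL, 304, 354 and 286 in KO and 1046, 1042 and 1022 in KOL. KO was the lowest group and KOL the highest, and no groups overlapped. Its KO against WT log2 fold change was -0.61 (SE 0.08, edgeR adjusted p = 2.9e-05). LPS raised it 3.29-fold in KO (log2 fold change 1.72, SE 0.08, edgeR adjusted p = 1.8e-10), while in WT the difference was 0.90 (SE 0.08, adjusted p = 1.9e-07), under the 2-fold cutoff. On TPM these were 1.16 and 0.34. The response was larger in KO by 0.82 (95% interval 0.58 to 1.06, edgeR adjusted p = 0.00019), and KOL against WTL gave 0.22 (SE 0.08, adjusted p = 0.034), under the 1.5-fold cutoff.

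Fas, a death receptor that also takes part in non-apoptotic signalling, had 813, 814 and 835 normalized counts in WT, 1246, 1241 and 1389 in WTL, 811, 829.5 and 769 in KO and 1774, 1698 and 1872 in KOL. WT and KO overlapped, and every KOL library lay above every WTL library. LPS raised it 2.22-fold in KO (log2 fold change 1.15, SE 0.07, edgeR adjusted p = 3.4e-09), a call that limma on TPM did not make (0.80, adjusted p = 1e-06). In WT the difference was 0.66 (SE 0.07, edgeR adjusted p = 1.8e-06), under the cutoff, and on TPM 0.19. The response was larger in KO by 0.49 (95% interval 0.28 to 0.71, edgeR adjusted p = 0.0037), while KO against WT gave -0.03 (95% interval -0.18 to 0.12, adjusted p = 0.75; -0.24 on TPM, limma adjusted p = 0.013) and KOL against WTL 0.46 (SE 0.07, adjusted p = 8.8e-05), under the 1.5-fold cutoff. The effective length of Fas, the mean length of its isoforms as RSEM weighted them, was 859 ± 11.8 bases in WT, 817 ± 31.4 in WTL, 932 ± 48.8 in KO and 862 ± 53.2 in KOL (SD, n = 3), so that part of a TPM difference reflects the isoform weights.

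**Figure D5:**
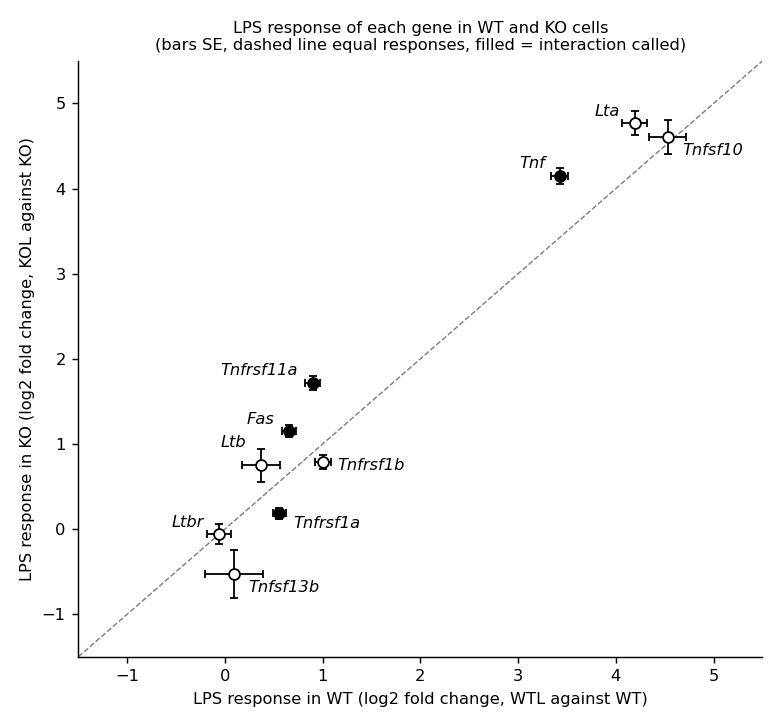
Log2 fold change of LPS in KO against that in WT for each of the 10 genes, with SE bars, a dashed line of equal response and filled points where the interaction was called. Tnf, Tnfrsf11a and Fas lie above the line and Tnfrsf1a below it, whereas Tnfsf10 sits on it at 4.53 and 4.61.

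Per transcript length, the order of the 10 genes changed with treatment and genotype. In WT, Tnfrsf1b led with 286 ± 7.33 TPM (SD, n = 3), followed by Tnf, by Fas (91.4 ± 2.38) and Tnfrsf1a (89.1 ± 1.42), which overlapped, by Ltbr (32.5 ± 0.707) and by Tnfrsf11a (12.1 ± 0.488). Ltb had 5.14 TPM, and Lta, Tnfsf13b and Tnfsf10 stood between 1.11 and 1.65 and overlapped. In WTL, Tnf (1245) came before Tnfrsf1b (398 ± 36.8), Fas (105 ± 6.46) and Tnfrsf1a (91.4 ± 4.12), while Lta, Ltbr, Tnfsf10 and Tnfrsf11a followed between 15.6 and 20.9 with each overlapping the next. In KO, Tnf came in the fourth place, at 44.0, behind Tnfrsf1b (167 ± 3.07), Tnfrsf1a (105 ± 1.90) and Fas (77.2 ± 4.36), and overlapped Ltbr (41.6 ± 0.792). In KOL, Tnf (570) led again, before Tnfrsf1b (200 ± 17.8), Fas (135 ± 1.43) and Tnfrsf1a (88.4 ± 7.90), with no overlap between these neighbours. The ratio of Tnf to Tnfrsf1b was 0.584 ± 0.0252 in WT and 0.263 ± 0.0106 in KO, and 3.13 ± 0.187 in WTL and 2.84 ± 0.0693 in KOL (SD, n = 3).

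Among the other ligands of the superfamily, 8 of 13 were tested. With LPS, 6 rose in WT and 5 in KO and none fell, with median log2 fold changes of 2.66 and 3.73. Of all genes, 12.6% were higher and 9.99% lower in WT and 15.1% and 13.0% in KO. With limma on log2(TPM + 1), 5 were higher and 2 lower in WT and 5 higher and 1 lower in KO. Over all genes that fit called more genes lower than higher, with 770 higher and 1975 lower in WT and 932 and 2178 in KO. Tnfsf15 (TL1A) went from 223 to 12660 normalized counts in WT (log2 fold change 5.83, SE 0.40, edgeR adjusted p = 1.4e-08) and Cd70, a costimulatory ligand, from 7.81 to 332 (5.39, SE 0.34, adjusted p = 5.4e-09). In KO against WT, 3 were lower and 1 higher, against 17.2% and 17.3% of all genes. Tnfsf9, the ligand of 4-1BB, had 177 normalized counts in WT and 56.5 in KO (-1.65, SE 0.25, edgeR adjusted p = 8.2e-05), and Tnfsf4, the OX40 ligand, 617 and 346 (-0.83, SE 0.09, adjusted p = 3.6e-06). In KOL against WTL, Tnfsf8, the CD30 ligand, was higher (2797 to 4769 normalized counts, 0.77, SE 0.12, edgeR adjusted p = 0.00013). The other gene called there was Tnfsf15, named after its values were seen, lower at 6337 ± 3697 in KOL against 12660 ± 5507 in WTL (SD, n = 3), groups whose libraries overlapped (edgeR adjusted p = 0.02). The LPS response was larger in KO for 3 of the 8 and smaller for 1, against 8.7% and 8.75% of all genes. Cd40lg had no count in any library.

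Of the other receptors, 16 of 23 were tested, and 11 of the 16 were lower in KO than in WT and none higher, where 17.2% of all genes were lower. The median of the 16 was -0.64 on the log2 scale. Tnfrsf9 (4-1BB) had 992 normalized counts in WT and 405 in KO (log2 fold change -1.29, SE 0.13, edgeR adjusted p = 2e-06), and Cd40, the receptor through which T cells license dendritic cells, 656 and 317 (-1.05, SE 0.07, adjusted p = 2.3e-08). Between KOL and WTL, 3 were lower and 2 higher, where 12.5% of all genes were called in each direction. Cd40 remained lower (15240 to 9598 normalized counts, -0.67, SE 0.06, edgeR adjusted p = 1e-06), and Tnfrsf23 was lower (237 to 139, -0.77, SE 0.11, adjusted p = 5.3e-05). Tnfrsf10b, a TRAIL receptor, was higher (102 to 197, 0.94, SE 0.13, edgeR adjusted p = 4.6e-05). LPS raised 4 and lowered 3 in WT, where 12.6% of all genes were higher and 9.99% lower. In KO it raised 7 and lowered 4, against 15.1% and 13.0% of all genes. The median log2 LPS difference of these receptors in WT was 0.088, and -0.48 on TPM. Cd40 rose 23.2-fold in WT and 30.2-fold in KO, and Tnfrsf21 (DR6) fell from 745 to 234 normalized counts in WT (-1.68, SE 0.07, edgeR adjusted p = 4.3e-11). The interaction, the log2 LPS difference in KO minus that in WT, was called higher for 8 and lower for 1, against 8.7% and 8.75% of all genes. The 8 were not all larger rises. Tnfrsf21 among them fell less in KO (-1.20) than in WT, and Tnfrsf10b had -0.34 in WT and 0.41 in KO. The 1 lower gene was Tnfrsf14, named after its values were seen, with 0.145 in WT and -1.145 in KO. For Tnfrsf9 the responses differed by 1.47 (SE 0.18, edgeR adjusted p = 9.3e-05).

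All 24 genes of proximal TNF receptor signalling were tested. LPS raised 6 and lowered 1 in WT, where 12.6% of all genes were higher and 9.99% lower. In KO it raised 7 and lowered none, against 15.1% and 13.0% of all genes. Cflar, which encodes the caspase-8 inhibitor c-FLIP, went from 3378 to 22420 normalized counts in WT (log2 fold change 2.73, SE 0.13, edgeR adjusted p = 3.2e-10), and Tnfaip3 (A20), a feedback inhibitor of NF-kB, from 3376 to 18660 (2.47, SE 0.07, adjusted p = 1e-12). Map3k14, the kinase NIK of the alternative NF-kB pathway, fell in WT from 1491 to 649 (-1.20, SE 0.11, adjusted p = 5e-07). In KO against WT, 3 of the 24 were higher and 6 lower, near the 17.3% and 17.2% of all genes. Cflar (2026 normalized counts in KO, -0.74, edgeR adjusted p = 0.00029) and Tnfaip3 (2322, -0.54, adjusted p = 1.4e-05) were lower, and Ripk3, the kinase of necroptosis, was higher (683 to 1113, 0.70, SE 0.08, adjusted p = 3.7e-06). In KOL against WTL, Map3k14 was higher (649 to 1150 normalized counts, 0.82, SE 0.11, edgeR adjusted p = 4.5e-05). Cflar (-0.62) and Birc3, the ubiquitin ligase cIAP2 (4345 to 2888 normalized counts, -0.59, adjusted p = 3.1e-06), were lower there, both near the cutoff.

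Genes that act in the shedding of TNF were higher in KO than in WT for 4 of 5 and lower for none, against 17.3% and 17.2% of all genes. Adam17, the sheddase, had 4703 ± 117 normalized counts in WT and 7336 ± 26.7 in KO (log2 fold change 0.64, SE 0.14, edgeR adjusted p = 0.002), and its partner Rhbdf2 (iRHOM2) 1208 and 1771 (0.55, SE 0.08, adjusted p = 5e-05). Frmd8 and Rhbdf1 were the others, named after their values were seen, Rhbdf1 with under 30 normalized counts in both groups. Between KOL and WTL, 2 of the 5 were higher, against 12.5% of all genes. These were Rhbdf1 (1.44, edgeR adjusted p = 0.00021) and the ADAM17 inhibitor gene Timp3 (1.25, adjusted p = 0.017), both low, at 26.2 and 72.4 and at 12.9 and 31.8 normalized counts in WTL and KOL, and named after their values were seen. Adam17 (-0.13) and Rhbdf2 (-0.33) were not called. The log2 LPS difference of Adam17 was 0.32 in WT (edgeR adjusted p = 0.063) and -0.45 in KO (adjusted p = 0.012), under the 2-fold cutoff. For Rhbdf2 it was 1.38 in WT and 0.50 in KO. The interaction, KO minus WT, was called lower for both, at -0.77 for Adam17 (SE 0.20, edgeR adjusted p = 0.017) and -0.88 for Rhbdf2 (SE 0.11, adjusted p = 9.9e-05). For Adam17 the interaction was not called on TPM (-0.59, limma adjusted p = 0.083), nor in edgeR without WT replicate 1, 2 or 3 (adjusted p of 0.06, 0.066 and 0.052).

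The genes whose levels most resembled that of Tnf over the 12 libraries, among 9337 with a mean of at least 100 normalized counts, were Fgl2 (Pearson r = 0.999), Lcp1 (0.998) and Rab7 (0.998), by log2(normalized count + 1). Fgl2, a secreted fibrinogen-like protein, had means of 964, 9459, 292 and 3975 normalized counts in WT, WTL, KO and KOL. Those nearest to Lta were Timp1, an inhibitor of matrix proteases (r = 0.998), Nipal1 (0.997) and Cmpk2 (0.997), and Timp1 had means of 85.1, 898, 72.8 and 949. The correlation ignores the size of the changes, and its 12 points share 4 groups and their library depths, so it is given as a description. Ltb and Tnfsf13b were under the minimum level. For the other genes the nearest were Ifit2, an interferon-induced gene, for Tnfsf10 (r = 0.999), Prag1 for Tnfrsf1b (0.993), Pfkp for Tnfrsf1a (0.988), Cdk9 for Ltbr (0.989), Idi1 for Tnfrsf11a (0.992) and Socs2 for Fas (0.994).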

How the data were processed

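RNA-seq gene tables of 12 libraries (4 groups of 3, from the sample titles) were used as deposited. Before deposition the authors used Trim Galore for trimming, STAR for alignment (mouse build mm10) and RSEM for quantification. The submitters' processing notes give STAR 2.5.1, and the study's documents name another version. The sources also differ on rRNA depletion against poly(A) selection. Each deposited table gives an expected count, a TPM value and an effective length per gene. Positions were taken from GENCODE M21, in which 54587 of 55335 identifiers were found, and promoter sequence from RefSeq (GRCm38.p6), with 11 windows for the 10 genes. Libraries held 12769773 to 16586334 expected counts, which limits the precision of genes with few counts.

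Expected counts were rounded, filtered with filterByExpr by group, scaled by TMM and tested with edgeR 4.0.16 (quasi-likelihood, R 4.3.3) in 1 fit over all groups, with Benjamini-Hochberg adjustment over 14008 genes and 95% intervals. The fit was checked on simulated counts. Alternatives were DESeq2 1.42.0, its size factors, other filters (none, or at least 10 counts in every library), no fold cutoff, the 6 libraries of a comparison alone, a replicate block, each library left out, and limma 3.58.1 on log2(TPM + 1) or log2(TPM + 0.1) for genes with at least 1 TPM in 3 libraries, where fold changes of low genes are understated. No pair of replicates held identical values.

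All 10 genes are given in full. Of the other lists, up to 2 rises and 2 falls per comparison were named among called genes with a mean of at least 100 normalized counts and no overlap between groups, and other genes are marked as named after their values were seen. The genes and lists were chosen with earlier results of these data known. Protein sequences were not used here.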

Additional observations from a re-analysis of the deposited data

Results flagged for a closer look

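For 4 of the 10 genes the LPS response differed between KO and WT by the interaction term of the edgeR fit. The difference in log2 fold change, KO minus WT, was 0.73 for Tnf (SE 0.12, edgeR adjusted p = 0.00083), 0.82 for Tnfrsf11a (SE 0.11, adjusted p = 0.00019), 0.49 for Fas (SE 0.10, adjusted p = 0.0037) and -0.37 for Tnfrsf1a (SE 0.10, adjusted p = 0.017). The call of Tnfrsf1a was lost without the filter (adjusted p = 0.065), without WT replicate 1, 2 or 3 (0.093, 0.085 and 0.089) and with limma on TPM (0.096 and 0.11). For Tnf the linear increment was smaller in KO, at 48.6% of that in WT, whereas for Tnfrsf11a and Fas it was larger, at 175% and 207.5%. No outlier test of single values was run, since each group held 3 libraries.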

How the results depend on the processing

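Of 750 recomputed log2 fold changes of the 10 genes, 699 kept their direction and side of the threshold, 20 lost a call, 7 gained one and 24 changed sign, and DESeq2, its size factors and the replicate block changed none. The replicate block gave 4, 4, 2, 5 and 4 called genes for LPS in WT, KO against WT, KOL against WTL, LPS in KO and the interaction, as without it. Deviations from the group mean correlated at -0.29 to 0.11 between same-numbered libraries (median -0.032) and at -0.27 to 0.33 between others (median 0.0155). With 3 libraries per group, such correlations cannot settle whether equal numbers mark paired cultures.

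Without a fold cutoff 7 of the 10 were called for LPS in WT, 6 between the LPS-treated groups and 8 for LPS in KO, by construction. With 1 library left out, 2 to 4 were called for KOL against WTL, with 4 reached without KOL replicate 2, and 3 to 5 for the interaction. Without KOL replicate 2, all genes gave 1842 higher and 2050 lower calls for KOL against WTL, against 1751 and 1752 with it. Over all genes, the minimum of 10 counts left 2039 of 3166 calls for WTL against WT and 2604 of 3932 for KOL against KO, with fewer genes tested. Without a fold cutoff the calls were 8433 for LPS in WT, 6257 between the LPS-treated groups and 9456 for LPS in KO, of 14008 genes tested. The interaction gave 2443 calls, 1552 and 1363 with limma on TPM and 3769 without KOL replicate 2.

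On TPM + 1 and TPM + 0.1 with limma, the sign changed for Ltb (-0.24, -0.29) and Tnfsf13b (-0.22, -0.40) in WTL against WT and for Tnfrsf1a in KOL against KO (-0.24, -0.25), and on TPM + 1 for Tnfsf10 in the interaction (-0.16). The median log2 fold change over all genes shifted on TPM + 1 by -0.49 for LPS in WT, -0.43 for LPS in KO and 0.065 for the interaction. The share of calls that were higher was 55.8% for WTL against WT, 53.7% for KOL against KO, 50.2% for KO against WT and 49.9% for the interaction, and 28.1%, 30.0%, 38.1% and 61.2% with limma on TPM + 1.

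With 1 library left out, uncalled log2 fold changes crossed 0. They ranged from -0.17 to 0.028 for Ltbr and from -0.094 to 0.21 for Tnfsf13b in WTL against WT, and from -0.076 to 0.00018 for Fas in KO against WT. In KOL against WTL they ranged from -0.094 to 0.18 for Ltb, from -0.11 to 0.0021 for Tnfrsf1a and from -0.19 to 0.16 for Tnfsf13b, in KOL against KO from -0.15 to 0.087 for Ltbr, and in the interaction from -0.087 to 0.15 for Ltbr and from -0.088 to 0.28 for Tnfsf10. The cause of these changes was not tested.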
